A study of Mus musculus with 15 samples.

Results

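The genes described here are 6 interferon-inducible genes that encode membrane proteins, *Ifitm1*, *Ifitm2*, *Ifitm3*, *Bst2*, *Ifi27* and *Ifi27l2a*, in the skin of mice lacking OTULIN in keratinocytes. They were picked by symbol from the raw count table, where all 6 of 6 were found among 55487 genes, and they were followed across 3 groups of skin libraries. The 6 genes were picked with earlier results of these same libraries known, so their differences between groups are given as a description and not as a test. RNA was sequenced from skin samples of C57BL/6 mice at 3 weeks of age, with 5 libraries in each group. The WT group consisted of *Otulin* fl/fl littermates without Cre, whose skin was labelled non-lesional. The other groups were non-lesional and lesional skin of OTULIN-KO mice, which were *Otulin* fl/fl *K14-Cre*. All 3 groups therefore share the loxP-flanked *Otulin* alleles. The keratin 14 promoter confines Cre to keratinocytes, so fibroblasts, vessels, muscle and immune cells in the sampled skin still carried OTULIN. The labels do not say whether a lesional and a non-lesional sample came from 1 mouse, and p-values below measure only the spread between samples.

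Interferons are secreted proteins that bind receptors on the cell surface and, through JAK kinases, activate transcription factors, among them STAT2 and IRF9. These bind a DNA element called the ISRE and switch on genes of antiviral defence, many of which code for proteins that sit in membranes. IFITM proteins are small proteins of the cell surface and endosomes that hinder the fusion of enveloped viruses, and BST2, also called tetherin, holds budding virus particles at the cell surface. IFI27 and IFI27L2A are small hydrophobic proteins of another interferon-induced family.

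The *Ifitm* genes lie together on chromosome 7. By GENCODE M21 on GRCm38, *Ifitm5*, *Ifitm2*, *Ifitm1*, *Ifitm3* and *Ifitm6* fall within 68.967 kb. *Ifitm2* (ENSMUSG00000060591) occupies 140954837 to 140955987 on the minus strand, *Ifitm1* (ENSMUSG00000025491) 140967221 to 140969825 on the plus strand, and *Ifitm3* (ENSMUSG00000025492) 141009586 to 141010770 on the minus strand. *Bst2* (ENSMUSG00000046718) lies on the minus strand of chromosome 8 from 71534255 to 71537456. *Ifi27* (ENSMUSG00000064215) and *Ifi27l2a* (ENSMUSG00000079017) are neighbours on chromosome 12, the first on the plus strand from 103434211 to 103440239 and the second on the minus strand from 103442167 to 103443680. All 6 are annotated as protein coding.

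The start regions of 4 of the 6 genes were read from RefSeq on GRCm38.p6, as windows from 250 bases before to 50 bases after the start. The core of the ISRE was searched on both strands as GAAANNGAAA, which 1131 of 32851 such windows of mouse genes hold (3.44%). *Ifitm3* and *Bst2* held it at 2 places each, which is so for 74 of the 32851 windows (0.225%), *Ifitm2* held it at 1 place, and *Ifitm1* held no match. The 250 bases before the RefSeq start of *Ifitm1* run from 140967826 to 140968075, inside the gene as GENCODE places it. The region around its GENCODE start was not searched. The sites are shown because the ISRE is the element through which genes of this kind are known to answer interferon. Each stretch is 30 bases, read 5′ to 3′ on the minus strand, with the ISRE core in capitals.
Ifitm3, chr7:141010714-141010743: gGAAAAGGAAActtctgaGAAACCGAAAct
Bst2, chr8:71537580-71537609: attccagGAAAATGAAACTGAAAggctgca
Ifitm2, chr7:140955988-140956017: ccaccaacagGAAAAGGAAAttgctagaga

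In *Ifitm3* the cores ran from base 3 to 12 and from base 20 to 29 after the start, inside the first exon, and the first of them has the same 10 letters as the single core of *Ifitm2*. In *Bst2* the cores overlapped by 4 bases, from base -130 to -121 and from base -124 to -115 relative to the start, and that of *Ifitm2* ran from base -46 to -37. A second element, the GAS of interferon-γ responses, was searched as TTCNNNGAA and is held by 2726 of the 32851 windows (8.3%). It lay at bases 14 to 22 of *Ifitm3*, overlapping its second ISRE core, and from base -136 to -128 of *Bst2*, overlapping its first core. These are matches of letters and not measured binding sites.

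**Figure D1:**
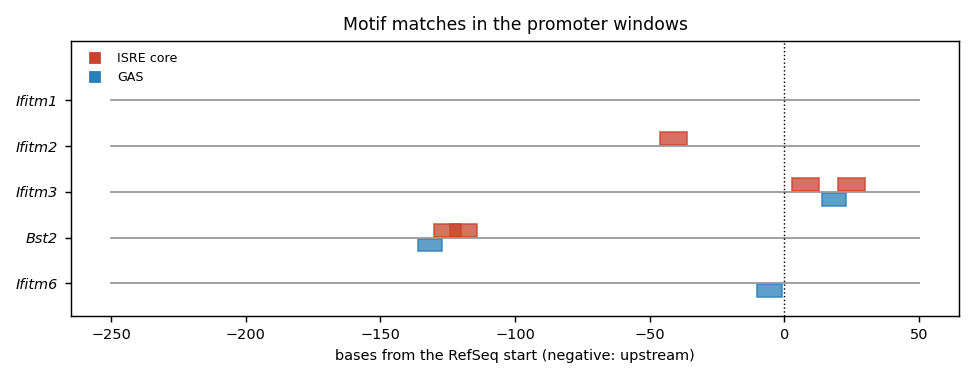
Matches of the ISRE core (red) and of the GAS (blue) in the windows around the RefSeq start of *Ifitm1*, *Ifitm2*, *Ifitm3*, *Bst2* and, for comparison, *Ifitm6*. The x axis is the distance in bases from the start, negative before it, and a darker block marks overlapping ISRE cores; *Ifitm1* is empty and *Ifitm6* holds only a GAS, from base -10 to -2.

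The libraries held between 1962604 and 2567138 counts, with similar ranges in the 3 groups. *Otulin* itself did not separate the genotypes in whole skin, at 22.8 ± 6.47 CPM in WT, 25.9 ± 4.11 in non-lesional and 24.5 ± 3.32 in lesional libraries (SD, n = 5), so groups are named by their labels. Basal keratinocyte genes such as *Krt5* and *Krt14* summed to between 5806 and 11716 CPM over the 15 libraries. Lesional replicates 2 and 11 stood apart from the other 13 libraries. Their stress keratins *Krt6a*, *Krt6b* and *Krt16* summed to 9402 and 27014 CPM, against 241 to 1298 in the others. Lesional 5, 8 and 14 summed to 334, 241 and 418 CPM, none above the WT range of 274 to 1298 CPM. The log2 fold changes of lesional skin that changed most without lesional 2 and 11 are also given without them. Those values therefore describe only lesional libraries without raised stress keratins. For qRT-PCR the study named focal lesions, with unequal lesional skin per sample, as the likely source of variable levels. For these libraries this was not tested. CPM are counts scaled to a common library size with TMM normalization. The libraries were made from the 3′ ends of transcripts, so a transcript gives about 1 read whatever its length, and CPM of different genes can be set side by side without a length correction.

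*Ifitm3* was the most abundant of the 6 genes and was higher in most OTULIN-KO libraries than in any WT library. Its level was 248, 263, 298, 264 and 315 CPM in WT replicates 1, 4, 7, 10 and 13. It was 422, 296, 419, 533 and 491 CPM in non-lesional replicates 3, 6, 9, 12 and 15. In lesional replicates 2, 5, 8, 11 and 14 it was 673, 297, 358, 1204 and 462 CPM. The WT libraries lay close together, and only non-lesional 6 and lesional 5 fell among them. The group means were 277.7 ± 27.5, 432 ± 90.0 and 599 ± 367 CPM (SD, n = 5), and the log2 fold change was 0.64 (SE 0.13) in non-lesional and 1.11 (SE 0.33) in lesional libraries against WT, the latter 0.69 without lesional 11. Between lesional and non-lesional libraries the difference was 0.47 on the log2 scale (SE 0.34). It was 0.05 without lesional 11 and -0.22 (SE 0.18) without lesional 2 and 11.

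*Ifi27l2a* followed the same order of groups from a lower level and with a wider spread. It measured 8.93, 21, 28.7, 15.6 and 34.2 CPM in the WT libraries, in the replicate order above. It measured 52.1, 42.5, 28.8, 58.1 and 66.4 CPM in the non-lesional libraries. The lesional libraries gave 116, 34.4, 31.6, 244 and 65.5 CPM. Only non-lesional 9 and lesional 8 lay within the WT range, while lesional 5 lay just above it. Means were 21.7 ± 10.1, 49.6 ± 14.5 and 98.3 ± 88.1 CPM (SD, n = 5). The log2 fold change against WT was 1.19 (SE 0.31) in non-lesional and 2.18 (SE 0.60) in lesional libraries, the latter 1.01 (SE 0.38) without lesional 2 and 11. Between lesional and non-lesional libraries it was 0.98 (SE 0.54), 0.32 without lesional 11 and -0.18 (SE 0.29) without both.

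*Bst2* was scarce in WT skin and was the only 1 of the 6 genes whose lesional libraries all lay above all WT libraries. WT libraries held 3.11, 3.49, 4.03, 2.53 and 3.76 CPM, from 6 to 10 counts each. Non-lesional libraries held 10.2, 5.10, 3.71, 5.21 and 9.17 CPM. Lesional libraries held 15.9, 5.64, 6.00, 59.2 and 4.85 CPM, up to 118 counts in lesional 11. Non-lesional 9 was thus the single OTULIN-KO library inside the WT range, while lesional 5, 8 and 14 stood only just above it. Summed over the 5 libraries of a group, *Bst2* had 41 counts in WT, 78 in non-lesional and 189 in lesional skin, which is 3.40 (2.44 to 4.62), 6.69 (5.29 to 8.35) and 17.3 (14.95 to 19.99) CPM of the pooled library totals (exact Poisson 95% interval, which covers counting error only). Without lesional 11 the lesional level was 8.02 (6.27 to 10.1) CPM. The log2 fold change in lesional against WT libraries was 2.41 (SE 0.73), 1.25 (SE 0.40) without lesional 11, and 0.69 (SE 0.39) without both lesional 2 and 11. In the non-lesional comparison *Bst2* did not pass the filter on low counts, where a fit without that filter gave 0.96 (SE 0.38) and a fit of all 15 libraries together 0.96 (SE 0.71). The difference between lesional and non-lesional libraries was 1.44 (SE 0.72), 0.29 (SE 0.40) without lesional 11, and -0.27 (SE 0.39) without lesional 2 and 11.

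*Ifi27* differed less between groups than its neighbour *Ifi27l2a* and was not high in lesional 2 and 11. It measured 71.4, 79.9, 76.6, 101 and 141 CPM in WT libraries. It measured 122, 102, 112, 155 and 176 CPM in non-lesional libraries, of which 2 lay above all WT libraries. The lesional libraries gave 97.1, 106, 106, 84.7 and 170 CPM, and only lesional 14 exceeded the WT range. Means were 94.0 ± 28.5, 134 ± 31.1 and 113 ± 33.1 CPM (SD, n = 5). The log2 fold changes against WT were 0.51 (SE 0.19) in non-lesional and 0.26 (SE 0.22) in lesional libraries, and -0.25 (SE 0.20) between lesional and non-lesional libraries. The lesional difference from WT was 0.06 without lesional 14 and 0.45 without WT 13. That of non-lesional libraries was 0.39 without non-lesional 15 and 0.70 without WT 13. The difference between lesional and non-lesional libraries was -0.44 without lesional 14 and -0.13 without non-lesional 15. Without lesional 2 and 11 *Ifi27* was at 0.43 against WT and -0.07 against non-lesional libraries.

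*Ifitm2*, which lies beside *Ifitm1* in the cluster and is closely related in sequence to *Ifitm3*, had overlapping levels in the 3 groups. WT libraries held 24.1, 38.0, 32.7, 21.1 and 33.1 CPM. Non-lesional libraries held 26.3, 26.8, 28.8, 30.9 and 27.5 CPM, all within the WT range. Lesional libraries held 36.7, 38.5, 36.8, 36.1 and 27.7 CPM, so that 4 of 5 lay above all non-lesional libraries and 1 above all WT libraries. The log2 fold change was -0.08 (SE 0.17) in non-lesional and 0.24 (SE 0.19) in lesional libraries against WT, and 0.33 (SE 0.15) between lesional and non-lesional libraries. Without WT replicate 4 the first of these was 0.02, so its sign rested on that library. The lesional difference from WT was 0.14 without WT replicate 10.

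*Ifitm1*, whose protein acts at the cell surface, was close to the limit of detection. WT libraries held 0.388, 1.75, 2.69, 0.422 and 3.76 CPM. Non-lesional libraries held 0, 1.27, 1.24, 2.40 and 1.31 CPM. Lesional libraries held 1.36, 3.08, 0.400, 7.52 and 2.43 CPM, from 1 to 15 counts each, the largest again in lesional 11. Over each group these were 22, 15 and 30 counts, or 1.83 (1.14 to 2.77), 1.29 (0.720 to 2.12) and 2.75 (1.86 to 3.93) CPM of the pooled totals, with the same Poisson interval. Lesional 11 held 15 of the 30 lesional counts, and the other 4 lesional libraries pooled to 1.70 (0.949 to 2.80) CPM. *Ifitm1* did not pass the filter on low counts in any of the 3 comparisons. A fit without that filter gave log2 fold changes of -0.50 (SE 0.66) in non-lesional and 0.67 (SE 0.65) in lesional libraries against WT, and 1.16 (SE 0.65) between lesional and non-lesional libraries.

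**Figure D2:**
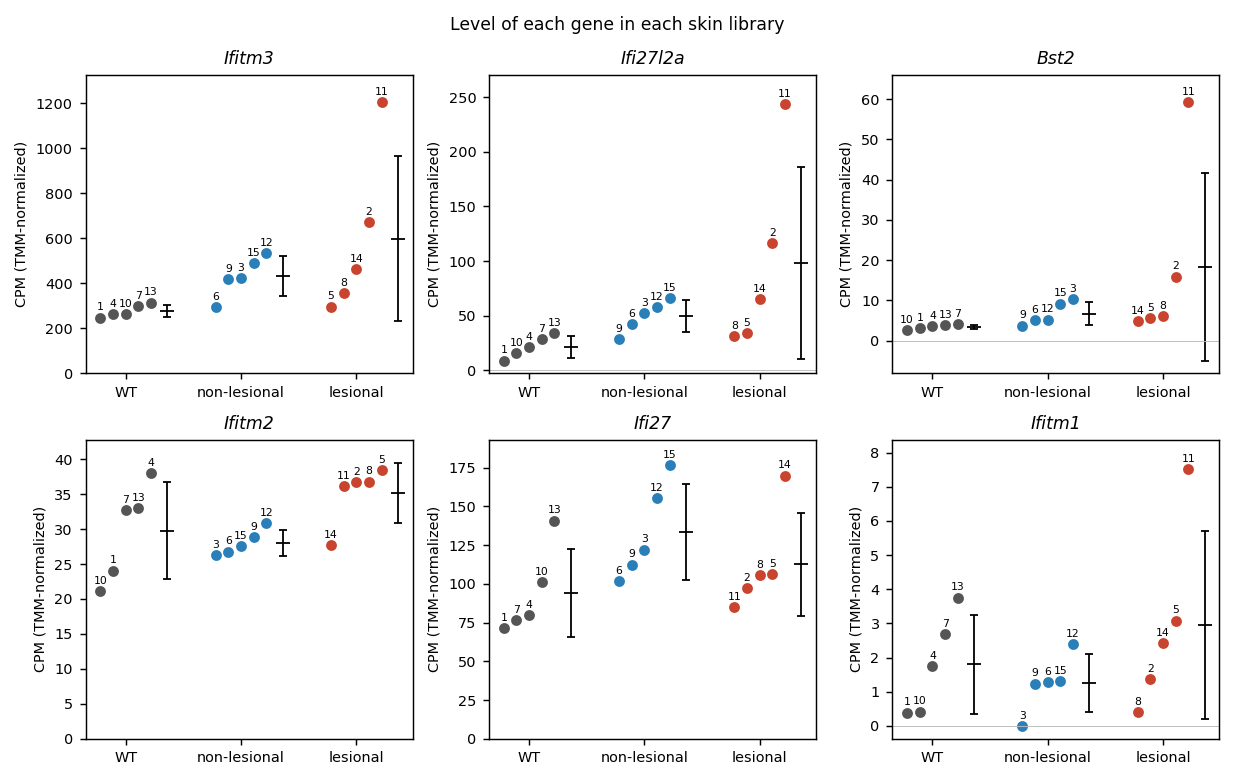
Level of each of the 6 genes in each library, in CPM after TMM normalization on linear axes with a separate scale for each gene. Each point is 1 library, numbered by its replicate and ordered by level within its group, and the bar beside each group gives the mean and SD (n = 5); *Ifitm3*, *Ifi27l2a* and *Bst2* share their 2 highest libraries, lesional 11 and lesional 2, while *Ifi27* and *Ifitm2* do not.

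Set in order of the mean level in WT skin, the genes were *Ifitm3*, *Ifi27*, *Ifitm2*, *Ifi27l2a*, *Bst2* and *Ifitm1*. The ranges of *Ifitm3* and *Ifi27* did not meet, and neither did those of *Ifi27* and *Ifitm2*, while *Ifitm2* overlapped *Ifi27l2a* and *Bst2* overlapped *Ifitm1*. *Ifitm3* alone made up 59.3% to 73.6% of the summed counts of the 6 genes in every library. The order differed in single libraries. *Ifi27l2a* stood clearly above *Ifitm2* in non-lesional 3, 6, 12 and 15 and in lesional 2, 11 and 14, near it in WT 13 and non-lesional 9, and above *Ifi27* in lesional 2 and 11. In lesional 11 *Bst2* at 59.2 CPM also stood above *Ifitm2* at 36.1 CPM.

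Among the closest relatives of these genes *Ifitm6* was the most abundant, and its 3 groups overlapped. This gene, the next after *Ifitm3* at a distance of 4.928 kb, measured 27.7 ± 18.3, 31.7 ± 9.54 and 26.2 ± 15.4 CPM in WT, non-lesional and lesional libraries (SD, n = 5). Its log2 fold changes were 0.19 (SE 0.41) and -0.09 (SE 0.47) against WT and -0.28 (SE 0.36) between lesional and non-lesional libraries, and without lesional 2 and 11 the last 2 were 0.30 and 0.12. *Ifitm5*, a bone gene, had at most 5 counts in a library, *Ifi27l2b* at most 4, and *Ifitm10* from 3 to 19. *Ifitm7* on chromosome 16 had 0 counts in all 15 libraries. Family members share sequence at their 3′ ends, where these libraries were read. Of the 35-base stretches in the last 400 bases, 35.25% of those of *Ifitm2*, 22.95% of *Ifitm3*, 8.47% of *Ifitm1* and 4.918% of *Ifi27l2a* occur letter for letter in transcripts of another gene, and none of those of *Bst2* or *Ifi27* does. Reads from such stretches could be lost to the filter on unique matches, so the levels of the first 4 genes are less certain than those of the last 2. Part of the exon of *Ifitm2* also overlaps *Gm45717* on the same strand, and such reads were counted for both genes.

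In the comparison of non-lesional with WT skin, which asks what OTULIN loss in keratinocytes changes outside lesions, 0 of 13021 genes (0%) passed an adjusted p of 0.05 in edgeR's quasi-likelihood test. At an unadjusted p under 0.05 there were 410 genes (3.15%), and DESeq2 called 3 genes (0.023%), none of them among the 6. Without a filter on low counts edgeR called 18 of 27255 genes (0.066%), with *Ifitm3* and *Ifi27l2a* among them, and without non-lesional 6 it called 5 of 13217 (0.0378%), with *Ifitm3* among them. Of the 6 genes, 4 passed the filter and 3 of these, *Ifitm3*, *Ifi27* and *Ifi27l2a*, were under the unadjusted p. The median log2 fold change of the 4 genes that passed the filter was 0.57, beside -0.0023 over all genes. None of the 6 was free of overlap between groups, beside 0.66% of all genes. *Ifitm3*, *Bst2* and *Ifi27l2a* each had 4 of 5 non-lesional libraries above every WT library, and 2.03% of all genes had at least 4 such libraries. Since the genes were picked with results of all 3 comparisons known, nothing is read from these counts or from those that follow.

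In the comparison of lesional with WT skin, 0 of 12918 genes (0%) passed the adjusted p in edgeR's test, 621 (4.81%) were under an unadjusted p of 0.05, and DESeq2 called 1 gene (0.00774%), which was not among the 6. *Ifitm3*, *Bst2* and *Ifi27l2a* were under the unadjusted p, out of 5 genes that passed the filter. The median of these 5 was 1.11 on the log2 scale, beside -0.0034 over all genes, and it was 0.43 without lesional 2 and 11. *Bst2* was free of overlap, beside 0.689% of all genes, but it passed the filter here through its lesional counts, having failed it between non-lesional and WT libraries, so its place in these counts and in the median is no support. *Ifitm3* and *Ifi27l2a* each had 4 of 5 lesional libraries above every WT library, beside 2.76%. Between lesional and non-lesional skin, 0 of 12864 genes (0%) passed the adjusted p in edgeR's test and 0 in DESeq2, and 543 (4.22%) were under an unadjusted p of 0.05. *Ifitm2* was the only 1 of the 6 under it, and had 4 of 5 lesional libraries above every non-lesional library, beside 2.39% of all genes. None of the 6 was free of overlap there, beside 0.622% of all genes. The median of the 5 genes tested was 0.47, beside 0.0030 over all genes, and it was -0.18 without lesional 2 and 11. The comparisons share libraries and are therefore not independent of each other.

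**Figure D3:**
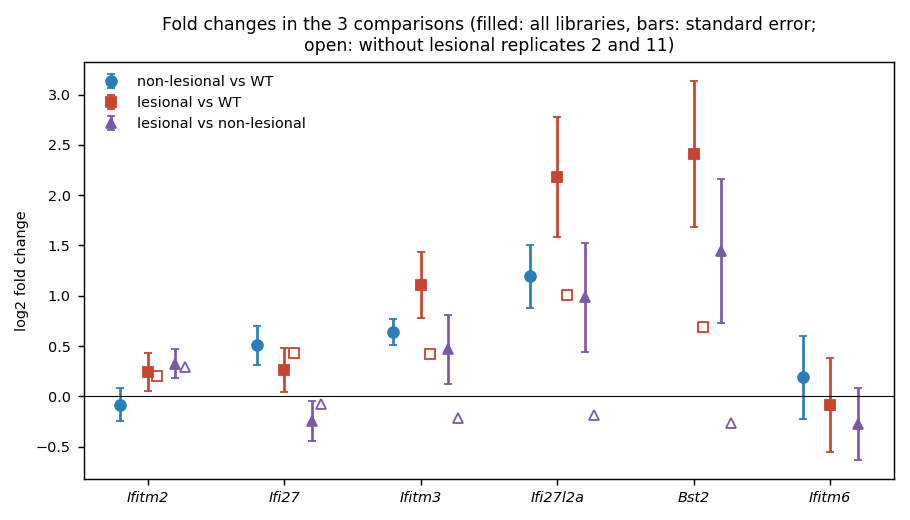
Log2 fold change of the genes that passed the filter in each comparison, with *Ifitm6* beside them, where filled symbols are the edgeR values with bars of 1 SE and open symbols the values without lesional 2 and 11. Without these libraries *Ifitm3*, *Ifi27l2a* and *Bst2* remain above 0 against WT, at 0.42, 1.01 and 0.69, and fall below 0 against non-lesional skin. The lesional libraries left for the open symbols are those without raised stress keratins.

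Lesional replicates 2 and 11 held the 2 highest values of all 15 libraries for *Ifitm3*, *Bst2* and *Ifi27l2a*. The other 13 libraries ran from 248 to 533 CPM for *Ifitm3*, from 2.53 to 10.2 CPM for *Bst2* and from 8.93 to 66.4 CPM for *Ifi27l2a*. The same 2 libraries ranked only 11 and 12 of 15 for *Ifi27* and 12 and 15 for *Ifitm6*, which measured 15.4 and 12.03 CPM in them and 22.1 to 50.5 CPM in the other 3 lesional libraries. High values in these libraries were thus not common to the whole gene cluster or to both genes of the *Ifi27* pair. Without both libraries, the log2 fold change of lesional against WT skin was 0.42 (SE 0.15) for *Ifitm3*, 0.69 for *Bst2* and 1.01 for *Ifi27l2a*, all above 0.

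**Figure D4:**
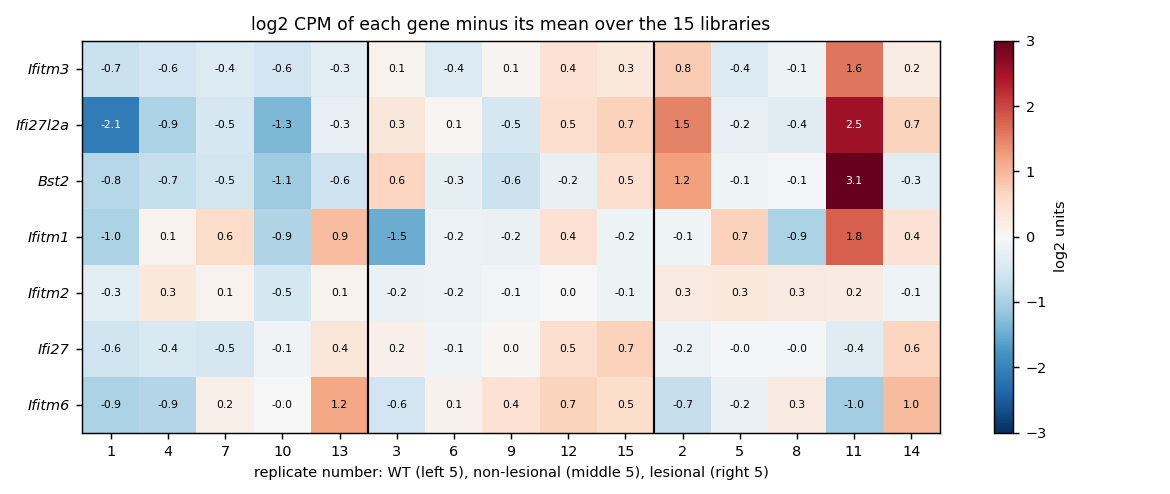
Log2 CPM of the 6 genes and *Ifitm6* in each library, minus the mean of the gene over the 15 libraries, in log2 units from blue (below the mean) to red (above it). Columns are libraries by replicate number, with WT on the left, non-lesional in the middle and lesional on the right; lesional 11 reaches 3.1 for *Bst2*, 2.5 for *Ifi27l2a* and 1.6 for *Ifitm3*, and lies at -0.4 for *Ifi27* and -1.0 for *Ifitm6*.

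Markers of some cell types moved with these 2 libraries. Beside the stress keratins, a list of 6 neutrophil genes, 4 of them detected, summed to 2991 CPM in lesional 2 and 5132 CPM in lesional 11, against 1.69 to 218 CPM elsewhere. *S100a8* and *S100a9* made most of that sum, *Cxcr2* had at most 11 counts and *Retnlg* at most 23 counts in a library, and *Csf3r* and *Ly6g* had 0 counts in all 15 libraries. A list of 8 macrophage genes, at 522 and 588 CPM, stayed within the range of the other libraries, 296 to 670 CPM. The median log2 fold changes of this list against WT were 0.22 in lesional and 0.09 in non-lesional libraries, between -0.17 for *Lyz2* and 1.19 for *Aif1* in lesional libraries. Without lesional 2 and 11 the lesional median was 0.02 and *Aif1* was at 0.83. Endothelial genes (7 of 7 detected) summed to 191 and 131 CPM, against 208 to 295 CPM elsewhere. Basal keratinocyte genes (6 of 6 detected) summed to 7801 and 11716 CPM, against 5806 to 7567 CPM, and adipocyte genes (5 of 5 detected) to 915 and 823 CPM, against 963 to 2122 CPM. In lesional against WT libraries *Krt14* and *Krt5* were above 0 on the log2 scale, at 1.36 (SE 0.57) and 0.29 (SE 0.25), and the other 4 basal genes were below 0, with a list median of -0.06. Without lesional 2 and 11 *Krt14* was at -0.05 and *Krt5* at -0.18, with a list median of -0.12. Suprabasal keratinocyte genes (5 of 5 detected) summed to 5849 and 5294 CPM, against 4836 to 8505 CPM elsewhere, with a lesional median of 0.61 against WT and 0.02 without these 2 libraries. In lesional against WT libraries *Flg*, *Krt1* and *Ivl* were at 1.12, 0.68 and 0.61, and *Krt10* and *Lor* at -0.49 and -0.32. T cell genes (5 of 5 measured detected) summed to 22.7 and 11.5 CPM, against 11.05 to 20.1 CPM. Muscle genes (5 of 5 detected) were lower, at 10379 and 2533 CPM against 11673 to 25544 CPM. Fibroblast genes (7 of 7 detected) summed to 27264 CPM in lesional 2, within the range of 26095 to 67986 CPM elsewhere, and to 16572 CPM in lesional 11, below it. BST2 is also a surface marker of plasmacytoid dendritic cells, whose list of 5 genes had 4 detected and *Klk1* at 0 counts. That list summed to 268 to 576 CPM in WT, 325 to 505 CPM in non-lesional and 110 to 821 CPM in lesional libraries, mostly from *Cox6a2*, also a muscle gene, while *Siglech* reached at most 9 counts in a library. In whole skin, more RNA per cell and more cells of a type cannot be told apart, and the part of these cell type differences in the levels of the 6 genes was not tested.

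Over non-lesional libraries, stress keratins summed to between 313 and 958 CPM, within the 274 to 1298 CPM of WT libraries. The neutrophil list measured 218, 20.97 and 7.002 CPM in non-lesional 3, 15 and 9, above all WT libraries. WT libraries lay between 1.69 and 6.60 CPM, and non-lesional 6 and 12 measured 3.40 and 3.61 CPM. In non-lesional 3, 4 of the 6 listed genes had no counts, and the sum came from *S100a8* and *S100a9* alone. Which cells these transcripts came from was not tested, so the sums do not show whether neutrophils were present. Macrophage genes lay between 381 and 518 CPM in non-lesional and between 296 and 670 CPM in WT libraries. T cell genes (5 of 6 in the table) lay between 11.05 and 20.1 CPM in non-lesional and between 12.2 and 19.3 CPM in WT libraries.

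Ratios of counts within a library need no normalization between libraries. *Ifi27l2a* had 0.232 ± 0.0985 counts for each *Ifi27* count in WT and 0.370 ± 0.0678 in non-lesional libraries (SD, n = 5). In lesional libraries the ratio was 1.196, 0.324, 0.299, 2.88 and 0.386 for replicates 2, 5, 8, 11 and 14. Lesional 2 and 11 therefore carried more *Ifi27l2a* than *Ifi27*, which no other library did. *Ifitm3* had 9.69 ± 2.03 counts for each *Ifitm2* count in WT, between 6.93 and 12.5. It had 15.4 ± 2.72 in non-lesional libraries, between 11.1 and 17.9, and from 7.71 to 33.3 in lesional libraries. *Bst2* counts were 1.22% ± 0.158 of *Ifitm3* counts in WT, 1.58% ± 0.645 in non-lesional and 2.38% ± 1.49 in lesional libraries.

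Patterns over the 15 libraries were compared by the root mean square difference of log2 CPM after each gene was centred on its mean, a distance that also grows with the spread of the genes compared. The smallest distance of all pairs was that of *Ifitm2* and *Ifi27*, at 0.50. *Bst2* and *Ifi27l2a* differed by 0.52, *Ifitm3* and *Bst2* by 0.55, *Ifitm2* and *Ifitm3* by 0.57, and *Ifitm3* and *Ifi27l2a* by 0.59. *Ifi27* differed from *Bst2* by 1.10 and from *Ifi27l2a* by 1.03. Among all 13460 other genes that passed the filter, those nearest to *Ifitm3* were *Trim30d* at 0.19, *Tap1* at 0.22 and *Gbp7* at 0.23, where *Ifitm3* itself had an SD of 0.59. *Tap1* codes for a subunit of the peptide transporter of antigen presentation, and *Gbp7* for a guanylate-binding protein. Nearest to *Ifi27l2a*, with an SD of 1.09, were *Gm28042* at 0.45, *Sptbn5* at 0.46 and *Pla2g4b* at 0.46. Nearest to *Ifi27*, with an SD of 0.39, were *Mavs*, the mitochondrial adaptor of RNA sensing, at 0.21, *Adh5* at 0.22 and *Tmem126b* at 0.22. Nearest to *Ifitm2*, with an SD of 0.25, were *Ube2d2a* at 0.17, *Ccdc59* at 0.17 and *Cdc5l* at 0.18. The points share their libraries and these distances are a description.

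Of the interferons, which are the ligands of the pathway, none of 9 listed genes passed the filter. *Ifnk*, an interferon of keratinocytes, was seen in 8 libraries and reached at most 9 counts, in lesional 2. The listed ligands summed to 4.08 CPM in lesional 2 and 0.501 CPM in lesional 11, against 0 to 1.31 CPM in the other 13 libraries. *Ifng* had 1 count in 1 library, and *Ifnb1*, *Ifna1*, *Ifna2*, *Ifna4*, *Ifne*, *Ifnl2* and *Ifnl3* had 0 counts in all 15 libraries, so any difference in them was not detectable at this depth.

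The receptor and kinase genes *Ifnar1*, *Ifnar2*, *Jak1* and *Tyk2* had log2 fold changes between -0.13 and 0.12 in both comparisons with WT, and they were added to the text with those values known. The 4 signalling genes that follow were named for the smallest p in these comparisons. *Irf9*, the DNA-binding subunit of the complex on the ISRE, had 0.78 (SE 0.18) in non-lesional and 1.21 (SE 0.33) in lesional libraries against WT. *Stat2*, its partner, had 0.66 (SE 0.24) and 1.32 (SE 0.40). *Irf7*, which amplifies interferon responses, had 1.29 (SE 0.36) and 2.37 (SE 0.69), and *Usp18*, which restrains the receptor, 1.503 (SE 0.38) and 2.20 (SE 0.61). Of the 11 genes of this list 9 could be tested in non-lesional and 10 in lesional libraries against WT, 0 passed the adjusted p, and 5 in each were higher at an unadjusted p under 0.05, beside 1.85% and 3.24% of all genes. The medians of the list were 0.57 and 1.26. Against WT, *Socs1* passed the filter only through its lesional counts, so its place in the lesional median is no support. Without lesional 2 and 11 the lesional median was 0.23, with 2 of 10 genes higher at the unadjusted p, beside 1.42% of all genes. *Irf7* was then at 0.76 (SE 0.41), *Usp18* at 0.87 (SE 0.43), *Irf9* at 0.52 (SE 0.20) and *Stat2* at 0.57 (SE 0.26).

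Other interferon-induced genes of membranes and of antigen presentation gave medians of 0.33 in non-lesional and 0.88 in lesional libraries against WT. Of these 11 genes 10 were tested, 0 passed the adjusted p, and 4 and 9 were higher at the unadjusted p, beside 1.85% and 3.24% of all genes. *H2-D1*, a class I histocompatibility gene, had log2 fold changes of 0.43 (SE 0.13) and 0.74 (SE 0.31). *Tmem173*, which codes for the adaptor STING, had 0.65 (SE 0.32) and 1.42 (SE 0.37), and *Ly6a*, a surface protein anchored by lipid, 0.23 (SE 0.18) and 0.72 (SE 0.27). *Rsad2*, an antiviral enzyme of the endoplasmic reticulum and lipid droplets, had 0.90 (SE 0.35) and 2.23 (SE 0.80). Without lesional 2 and 11 the lesional median was 0.18 and 1 of 10 genes was higher at the unadjusted p, beside 1.42% of all genes, with *Tmem173* at 0.88 (SE 0.34), *Rsad2* at 0.39 (SE 0.40), *Ly6a* at 0.27 (SE 0.21) and *H2-D1* at 0.02 (SE 0.15). Between lesional and non-lesional skin, 1 of 10 genes of this list, 0 of 10 signalling genes and 2 of 16 genes of the cytosolic list that follows were higher at the unadjusted p, beside 2.89% of all genes.

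Interferon-induced genes whose proteins act in the cytosol had medians of 0.70 over 14 of 24 genes tested in non-lesional and 1.45 over 13 in lesional libraries against WT. None passed the adjusted p, and 9 and 12 were higher at the unadjusted p, beside 1.85% and 3.24% of all genes. *Ifit1*, which binds viral RNA, had 2.15 (SE 0.41) and 3.84 (SE 1.13), and *Oasl2*, of the oligoadenylate synthetase family, 1.74 (SE 0.40) and 3.58 (SE 1.09). *Rtp4* had 1.75 (SE 0.38) and 3.36 (SE 0.88), and *Ifi44* 1.78 (SE 0.42) in non-lesional libraries. Against WT, *Ifi44* passed the filter only through its non-lesional counts, so its place in the median and count of this list is no support. Without lesional 2 and 11 the lesional median was 0.40, with 3 of 13 genes higher at the unadjusted p, beside 1.42% of all genes. *Ifit1* was then at 0.99 (SE 0.47), *Oasl2* at 0.73 (SE 0.39) and *Rtp4* at 1.17 (SE 0.34). In lesional 2 and 11 the summed level of this list was 833 and 1845 CPM, against 144 to 408 CPM in the other 13 libraries. The other lesional libraries, 5, 8 and 14, summed to 202, 216 and 294 CPM, beside 144 to 217 CPM in WT and 206 to 408 CPM in non-lesional libraries. The list of membrane genes summed to 2160 and 3266 CPM, against 871 to 1287 CPM. The signalling list summed to 920 and 1311 CPM, against 460 to 657 CPM, so the 2 libraries that were high in *Ifitm3*, *Bst2* and *Ifi27l2a* were also high in these lists. Between lesional and non-lesional skin, the medians of the signalling, membrane and cytosolic lists were 0.55, 0.58 and 0.85, and -0.17, -0.15 and -0.39 without lesional 2 and 11.

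Genes whose proteins act on or with the proteins of the 6 genes did not pass either threshold. The list held *Zmpste24*, a membrane protease that works with IFITM proteins, *Vapa*, a protein of the endoplasmic reticulum bound by IFITM3, and *Nedd4*, *Zdhhc20* and *Setd7*, which add ubiquitin, lipid and methyl groups to IFITM3. It also held *Nr4a1* and *Skp2*, whose proteins bind IFI27. All 7 were tested, and 0 passed the adjusted p in each of the 3 comparisons, beside 0% of all genes. At the unadjusted p there were 0 in each, beside 3.15%, 4.81% and 4.22% of all genes. With so few genes a count of 0 is near those shares, and nothing is read from it. Their median log2 fold changes were 0.0056 and 0.092 against WT and 0.089 between lesional and non-lesional libraries. The largest in size against WT was that of *Nr4a1*, 0.58 (SE 0.70) in lesional libraries, which was -0.48 (SE 0.69) without lesional 2 and 11, where the median against WT was -0.05.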

How the data were processed

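Skin RNA was sequenced with the QuantSeq 3′ kit (forward protocol). Per the study's methods and the submitters' processing notes, the authors clipped adaptors with cutadapt 2.10, mapped reads to GRCm38 and ERCC spike-ins with Subread, kept high-quality unique matches with SAMtools 1.7-2 and counted exon matches with featureCounts 2.0.1, a read over several genes being counted for each. The annotation release and strand setting are not given in the sources used here. RNA integrity is not given per sample either, and the study's methods state the same low cutoff both for excluded and for included samples. The deposited counts are raw, and the deposited CPM are counts scaled by each library total, used as an alternative. The 92 spike-in rows sum to 0 and were left out.

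Each comparison was fitted on its 2 groups with edgeR 4.0.16 in R 4.3.3 (TMM, filterByExpr, robust quasi-likelihood F-test, Benjamini-Hochberg over all genes tested, threshold 0.05). An SE is the absolute log2 fold change over the square root of F. log2 CPM used a prior count of 2. Alternatives were DESeq2 1.42.0, limma 3.58.1 (voomWithQualityWeights), other normalizations and filters, 1 fit of all 15 libraries, no robust estimation, an adjusted p under 0.1, and leaving out each replicate. Counts include PCR copies, so intervals cover counting error only.

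The 6 genes and all gene lists were chosen with earlier results of these data known. Named are the 6 genes in every library, relatives and partners, per list at most 4 genes with the smallest p against WT, and for each of the 6 with at least 10 counts in every library the 3 genes nearest in pattern. *Ifnar1*, *Ifnar2*, *Jak1*, *Tyk2*, the interferon genes, *Gm45717* and the cell type markers were named beyond this rule, after their values were known.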

Additional observations from a re-analysis of the deposited data

Results flagged for a closer look

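In 3 of 18 groups of 5 values a single library stood apart by Dixon's ratio, the gap to the next library over the whole range, where chance gives about 1 in 20 groups. *Bst2* in lesional 11, at 59.2 CPM against 4.85 to 15.9 CPM in the other 4 lesional libraries, had a ratio of 0.797, above the critical value of 0.71. *Ifi27* in lesional 14, at 170 CPM against 84.7 to 106 CPM, had a ratio of 0.748. *Ifi27* was also highest in WT 13 and non-lesional 15 of their groups, at 141 and 176 CPM. *Ifitm2* in lesional 14, at 27.7 CPM against 36.1 to 38.5 CPM, had a ratio of 0.780.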

How the results depend on the processing

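Of 260 alternative fold changes of *Ifitm2*, *Ifitm3*, *Ifi27* and *Ifi27l2a*, and of *Bst2* with lesional libraries, 251 moved by less than 1 SD and 9 moved more, the SD being that of log2 CPM within the 2 groups, from 0.15 for *Ifitm2* to 1.08 for *Bst2*, both between lesional and non-lesional libraries. These were values of *Bst2*, *Ifitm3* and *Ifi27l2a* without lesional 11 or without lesional 2 and 11, and that of *Bst2* in lesional against WT libraries with voomWithQualityWeights, 1.24. With those weights *Ifitm3* was at 0.64, *Ifi27l2a* at 1.35 and the median of the genes at 0.64 in that comparison, against 1.11, 2.18 and 1.11. The count of genes past the adjusted p between non-lesional and WT libraries was 0, but 3 with DESeq2 and 18 without a filter on low counts, where 13 were higher and *Ifitm3* and *Ifi27l2a* were among them. It ran from 0 to 5 when a replicate was left out, with 5, *Ifitm3* among them, without non-lesional 6. Between lesional and WT libraries it was 0, and 1 with DESeq2. With an adjusted p under 0.1 it was 0 in all 3 comparisons. The number of the 6 genes without overlap was 0 to 2 between non-lesional and WT libraries when a replicate was left out, with 2 without WT 13 or non-lesional 9. It was 1 to 2 between lesional and WT libraries and 0 to 1 between lesional and non-lesional libraries. With at least 10 counts in every library it was 0 between lesional and WT libraries, since *Bst2* then left the test. An alternative added after seeing the data, leaving out lesional 2 and 11 together, moved the median of the genes from 1.11 to 0.43 against WT and from 0.47 to -0.18 against non-lesional libraries. Leaving out single replicates gave medians of 0.49 to 0.70, 0.69 to 1.28 and 0.29 to 0.64 in the 3 comparisons, the lowest of the last 2 without lesional 11. No paired or blocked analysis was made, because the groups share no replicate numbers and the sources used here name no sets. The numbers run from 1 to 15 in consecutive sets of WT, lesional and non-lesional, and what their order stands for is not given. The lowest fibroblast sum of each group, 26826, 16572 and 26095 CPM, fell in the set of 10, 11 and 12. *Ifi27* was highest of each group in the set of 13, 14 and 15. The standard errors take no account of such sets, and a blocked fit could give others. Depth limits *Ifitm1*, with at most 15 counts in a library, and *Bst2* in WT, with at most 10.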
